A study of Mus musculus with 6 samples.

Results

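Binding of Onecut3 was described at 8 mouse transcription factor genes of liver and pancreas development, namely Foxa1, Foxa2, Foxa3, Hnf4a, Pdx1, Neurog3, Prox1 and Sox9. They were picked by name for this role, with earlier results of these data known, out of 21887 protein-coding genes of the RefSeq table of GRCm38. The rule that finds their regions uses gene positions only. ChIP-Seq with an anti-FLAG antibody had been run on primary mouse embryonic fibroblasts (MEFs), cultured cells from mouse embryos, of strain C57BL/6 and p53 KO in every group. In the ONECUT3-OE group 100 ng/mL doxycycline switched on Onecut3 from a tetracycline-inducible retroviral vector, and the control group received none. The series holds 6 libraries, which are 3 FLAG replicates, 1 input and 1 IgG from ONECUT3-OE cells, and 1 FLAG library from control cells. Only the peak lists of the 3 FLAG replicates were used here, so the signal that the FLAG antibody gives without Onecut3 was not subtracted.

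Onecut factors bind DNA through a CUT domain and a homeodomain. Onecut1, also called HNF6, is known in mouse endoderm as an activator of Foxa2, Hnf4a, Pdx1 and Neurog3, and ONECUT proteins are known to bind short sequences around an ATTGAT or ATCGAT core. Foxa1, Foxa2 and Foxa3 are pioneer factors that bind packed chromatin in the early liver. Hnf4a is the nuclear receptor that maintains the hepatocyte program. Pdx1 specifies the pancreas, and Neurog3 starts the endocrine islet lineage. Prox1 acts in the outgrowth of liver progenitors, and Sox9 marks bile duct and pancreatic progenitor cells. MEFs are not endodermal cells, and peak lists cannot check the labelled cell type, which needs RNA.

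The 3 lists together formed 26 regions inside these genes or within 100 kb of them, and 5 of the 26 had a peak in every list. A region here is the union of peaks that overlap by at least 1 bp, and positions are on GRCm38. Of the 26 regions, 17 were in 1 list, 4 in 2 lists and 5 in all 3 lists (19.2%), against 10.1% of all 50844 regions in all 3 lists. Foxa2 alone held 13 of the 26. The 5 recurrent regions lay at Foxa2 (2), Foxa3 (2) and Sox9 (1). Foxa1, Hnf4a and Pdx1 had regions in 1 list only, and Neurog3 and Prox1 had none. No test was made of these counts, since genes are not replicates.

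Sequence was at hand for the promoters of 7 of the 8 genes, as 11 windows from RefSeq on GRCm38.p6. Each window ran from 250 bases before to 50 bases after a start site. The only Foxa1 window is at a start at 57546111, inside the gene, which is on the minus strand and reaches 57548029. Sequence before that outer end of Foxa1 was not searched. Only 2 windows held an exact match to ATTGAT (read on both strands, so also ATCAAT) or to the palindrome ATCGAT. Among the 11 windows, these were that of the most upstream Foxa2 start and that of the most upstream Hnf4a start. This Hnf4a start, at 163506857, lies inside the gene span used here, which begins at 163506811. Both are shown because the first lay under a region found in every list, while the second lay far from any peak. The Foxa2 stretch is chr2:148046970-148047219 on the minus strand, the Hnf4a stretch is chr2:163506607-163506856 on the plus strand, each covers the 250 bases before the start, and capitals mark the match.
Foxa2: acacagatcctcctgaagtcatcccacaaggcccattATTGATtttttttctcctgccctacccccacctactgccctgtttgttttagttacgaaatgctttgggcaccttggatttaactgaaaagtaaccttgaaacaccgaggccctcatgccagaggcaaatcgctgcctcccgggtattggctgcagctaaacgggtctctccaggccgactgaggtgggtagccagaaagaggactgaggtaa
Hnf4a: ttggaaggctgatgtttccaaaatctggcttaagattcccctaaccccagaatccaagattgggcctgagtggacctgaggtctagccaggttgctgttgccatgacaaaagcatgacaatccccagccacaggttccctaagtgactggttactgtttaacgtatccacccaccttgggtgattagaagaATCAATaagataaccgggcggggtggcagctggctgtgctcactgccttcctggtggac

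At Foxa2, all 3 FLAG lists had a peak just before the most upstream start of the gene, the peak of replicate 3 also crossed the start, and the stretch printed above lay inside the joint region. Foxa2 spans 148042877 to 148046969 on chromosome 2, is read from the minus strand and has 3 starts in the table. The region, from 148046890 to 148047333, had a fold over the expected background of 4.31 in replicate 1 (q = 3.32e-05), of 4.83 in replicate 2 (q = 2.89e-07) and of 4.37 in replicate 3 (q = 4.80e-05). The fold is the ratio of signal to expected background that the peak caller MACS2 gives at the summit. It is not a ratio to the control cells. The q is the caller's p-value after its correction for many tests. These folds were close to each other and stood at percentiles 90.0, 84.6 and 87.0 of their own lists. The summits lay 168, 195 and 117 bp upstream of the start in replicates 1, 2 and 3. The ATTGAT match began 213 bases before the start, and its centre was 42.5, 15.5 and 93.5 bp from those summits. All 3 peaks covered the match, from 148047177 to 148047182.

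**Figure D1:**
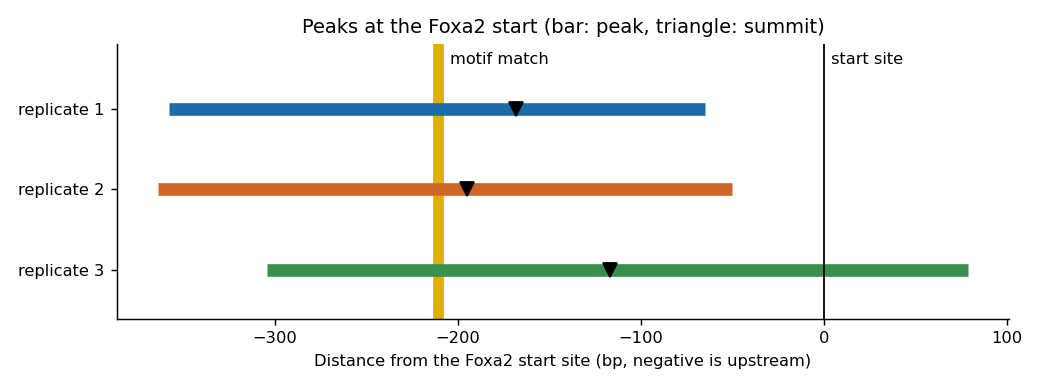
Peaks of replicates 1, 2 and 3 (rows, bars from start to end of each peak, triangles at the summits) by distance in bp from the most upstream Foxa2 start, with the ATTGAT match as a vertical band. Every bar crosses the band, and the summits lie 117 to 195 bp upstream of the start.

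A region over a promoter window was uncommon among genes. Of 17492 protein-coding genes with promoter windows, 1.87% had one overlapped by a region in all 3 lists, and 6.17% had one overlapped by a region in any list. Among the 7 genes here with a window, Foxa2 was the one with any such overlap. Of the 432 promoter windows under a region in all 3 lists, 38.4% held either core, against 8.40% of all 32851 windows and 7.58% of the 31368 windows without a region. For ATTGAT alone the shares were 27.1% and 7.54%, and for ATCGAT they were 11.3% and 0.925%, in windows under a region in all 3 lists and in all windows. Windows of 1 gene can overlap, so they are not independent, and these shares are a description. A match is a string of letters and not a measured site.

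**Figure D2:**
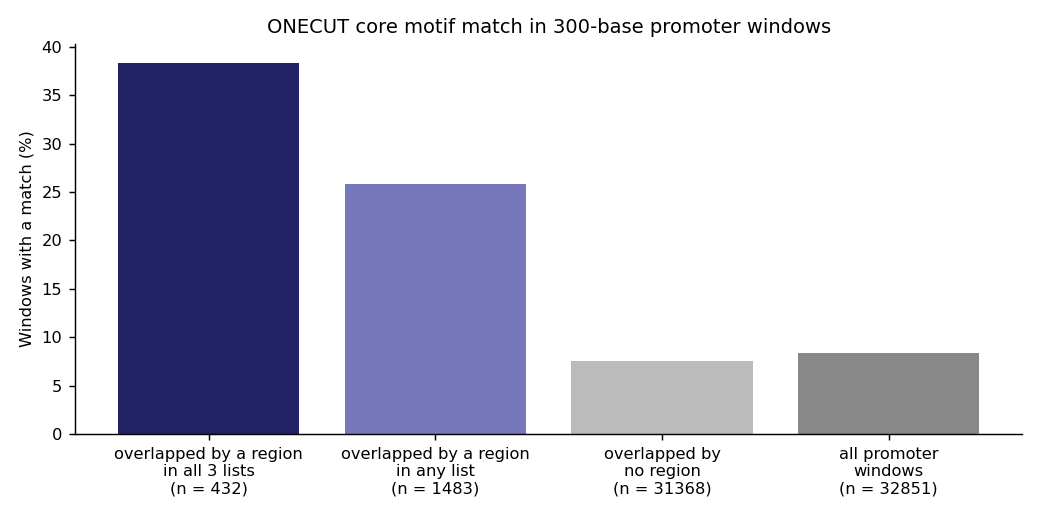
Percent of 300-base promoter windows with at least 1 match to ATTGAT or ATCGAT on either strand, for windows overlapped by a region in all 3 lists, by a region in any list, by no region, and for all windows. The share was 38.4% under regions in all 3 lists, 25.8% under regions in any list, 7.58% without a region and 8.40% over all windows.

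The second recurrent region near Foxa2 ranked high by fold in replicates 1 and 3 and low in replicate 2. It spanned 147994753 to 147995189, 47.7 kb downstream of the gene, inside the long noncoding RNA gene 9030622O22Rik. It had a fold of 6.47 (q = 1.38e-12) in replicate 1, 3.09 (q = 0.0466) in replicate 2 and 4.83 (q = 2.40e-06) in replicate 3. In their own lists these folds stood at percentiles 98.9, 20 and 92.9, so replicate 2 ranked the peak low. The 3 summits lay within 67 bp of each other. The pileup, the number of ChIP fragments over the summit, was 29 in replicate 1 (95% exact Poisson interval 19.4 to 41.6) on an expected background of 3.64, and 20 in replicate 3 (12.2 to 30.9) on 3.35. At the start of the gene the pileup was 19 (11.4 to 29.7) in replicate 1 and 18 (10.7 to 28.4) in replicate 3, on the same backgrounds of 3.64 and 3.35. Such intervals cover counting error only, and no whole pileup could be worked out for replicate 2.

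The other 11 regions near Foxa2 were each missing from at least 1 list. In all, 6 regions lay downstream of the gene, every one of them within 9030622O22Rik (147944459 to 148040513), 6 lay upstream and 1 crossed the start. The region from 147965563 to 147965922, 77.0 kb downstream, had folds of 4.24 in replicate 1 (q = 0.00120) and 4.46 in replicate 2 (q = 0.000502). The region from 148027410 to 148028018, 14.9 kb downstream, had folds of 2.73 (q = 0.521) and 2.87 (q = 0.404) in replicates 1 and 3, so neither peak passed a q of 0.05. Upstream, a pair of regions was also shared. The region from 148107238 to 148107549, at 60.3 kb, had folds of 3.33 (q = 0.0673) and 3.82 (q = 0.0116) in replicates 1 and 3. The region from 148123534 to 148123993, at 76.6 kb, had folds of 3.65 (q = 0.0112) and 2.96 (q = 0.228) in the same replicates. In both upstream regions 1 of the 2 peaks passed a q of 0.05. Of the 7 regions in a single list, the highest fold was 4.56 in replicate 1 (q = 6.65e-05), at 97.6 kb upstream and so just inside the 100 kb limit. Replicate 3 alone had a peak 41.6 kb upstream with a fold of 3.50 (q = 0.0430). The other 5 single-list peaks, 4 in replicate 1 and 1 in replicate 2, had q above 0.05. Among them was one only 2.47 kb upstream of the gene, with a fold of 2.73 in replicate 1 (q = 0.521). By q, 7 of the 13 regions had at least 1 peak at or under 0.05.

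Sox9 had 1 region, at its edge, in every list, and nothing else within 100 kb. The gene spans 112782210 to 112787757 on chromosome 11, with no other protein-coding gene in the window. The region, from 112781225 to 112781760, ended 450 bp outside the end of the gene at the lower coordinate. No strand or start site of Sox9 was at hand, so the region was not placed upstream or downstream. It had a fold of 5.10 (q = 2.69e-06) in replicate 1, 7.24 (q = 5.36e-12) in replicate 2 and 5.70 (q = 1.55e-07) in replicate 3. All 3 folds were high for their lists, at percentiles 95.3, 98.3 and 96.8. The summits lay 669, 636 and 637 bp outside the gene, a spread of 33 bp. The pileup was 18 fragments in replicate 1 (10.7 to 28.4) on a background of 2.73, and 19 in replicate 3 (11.4 to 29.7) on 2.51. By the mean percentile of fold over the 3 lists this region was number 304 of 5114 regions in all 3 lists, the start of Foxa2 was number 1233 and the downstream Foxa2 region was number 2721. It was also the only one of the 5 recurrent regions with a fold of at least 5 in each list.

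Foxa3 lies on chromosome 7 from 19013283 to 19023539 in a stretch with 11 other protein-coding genes in its window, and both of its recurrent regions were inside other genes. The nearer one, from 19032532 to 19032849, lay 9.0 kb upstream of Foxa3 within Sympk, which encodes a scaffold of the RNA polyadenylation machinery. It had a fold of 3.03 (q = 0.197) in replicate 1, 3.62 (q = 0.0356) in replicate 2 and 5.09 (q = 2.42e-05) in replicate 3. The summits of the 3 lists lay within 6 bp, the closest of the 5 recurrent regions, although only replicate 3 ranked the fold high, at percentile 94.4, against 46.2 and 42.3 in replicates 1 and 2. The farther one, from 19093471 to 19093929, lay 69.9 kb upstream within Dmpk, the kinase gene of myotonic dystrophy. It had a fold of 4.74 (q = 6.50e-05) in replicate 1, 3.63 (q = 0.0120) in replicate 2 and 3.12 (q = 0.142) in replicate 3. Here replicate 1 ranked it highest, at percentile 93.0, and the summits were spread over 131 bp. Replicate 2 alone had a further peak within Sympk, 21.0 kb upstream, with a fold of 5.29 (q = 3.62e-06). A peak within Mypop, 19.2 kb downstream, was present only in replicate 1 (fold 3.33, q = 0.0673). By mean percentile of fold the Sympk region was number 3517 of 5114 and the Dmpk region number 3670.

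**Figure D3:**
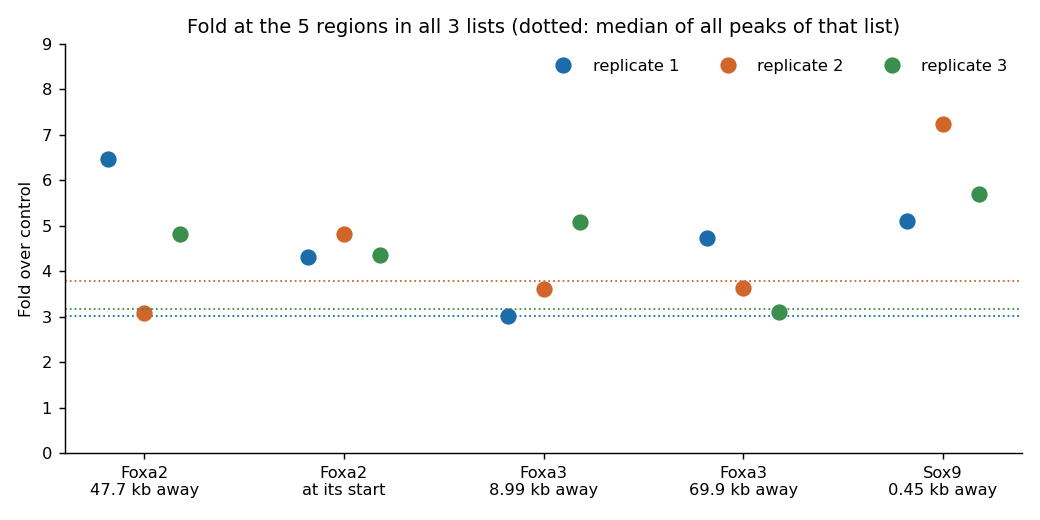
Fold in replicates 1, 2 and 3 at the 5 regions with a peak in every list, named by the gene and the distance to it. The control on the axis is the expected background of the peak caller, not the control cells. Dotted lines stand at the median fold of all peaks of each list (3.03, 3.79 and 3.18). The Sox9 region and the region at the Foxa2 start lie above the line of their list in every replicate, and each of the other 3 has a point at or below it.

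Foxa1 and Hnf4a had no peak inside the gene and none that 2 lists shared. The Foxa1 gene (57540628 to 57548029 on chromosome 12) had 2 peaks, both in replicate 1. One lay 41.9 kb downstream, between Foxa1 and Mipol1, with a fold of 3.03 (q = 0.197). The other lay 75.4 kb upstream, inside Ttc6, with a fold of 2.73 (q = 0.521). Neither passed a q of 0.05. The Hnf4a gene (163506811 to 163572907 on chromosome 2) had 4 regions, all at least 47.7 kb outside it and all in or beside other genes. Replicate 1 had peaks within Oser1, 93.5 kb upstream (fold 3.33, q = 0.0673), 1.56 kb from Ttpal, 47.7 kb downstream (fold 2.42, q = 1), and within Serinc3, 67.6 kb downstream (fold 3.33, q = 0.0673). Replicate 3 had a peak 232 bp from Oser1, 86.9 kb upstream, with a fold of 3.34 (q = 0.0338). The nearest region to the ATCAAT match printed above, which began 59 bases before the Hnf4a start of that window, was therefore 86.9 kb away. In human cells the corresponding upstream promoter of HNF4A, called P2, is known to hold a site for HNF6. The nearest region in all 3 lists lay 878 kb from Foxa1 and 458 kb from Hnf4a.

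Of the pancreas regulators, Pdx1 had 2 peaks in 1 list each and Neurog3 had none. Pdx1 spans 147270097 to 147275848 on chromosome 5. Replicate 3 had a peak 15.7 kb downstream of it with a fold of 3.45 (q = 0.0115), in the noncoding gene Gm35112 and 9.08 kb from Cdx2, an intestinal homeobox gene. Replicate 1 had one 44.0 kb downstream, inside Urad, with a fold of 2.59 (q = 0.369). The nearest region in all 3 lists was 2302 kb from Pdx1, the greatest distance among the 8 genes. Neurog3 (62133090 to 62134763 on chromosome 10) had its nearest peak of any list 206 kb away, in replicate 3 with a fold of 3.12, and its nearest region in all 3 lists 800.3 kb away. Prox1 (190118035 to 190170827 on chromosome 1) also had an empty window. Its nearest peak was 132 kb from the gene, in replicate 3 with a fold of 2.87. A region in all 3 lists followed at 152 kb, from 189966077 to 189966355, where the folds were 3.94, 5.57 and 3.50 in replicates 1, 2 and 3. It lies outside the 100 kb limit, and it adds Prox1 as a further gene with such a region when the limit is 200 kb. The lists hold only peaks that passed the caller's threshold, so an empty window does not measure how much signal was there.

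**Figure D4:**
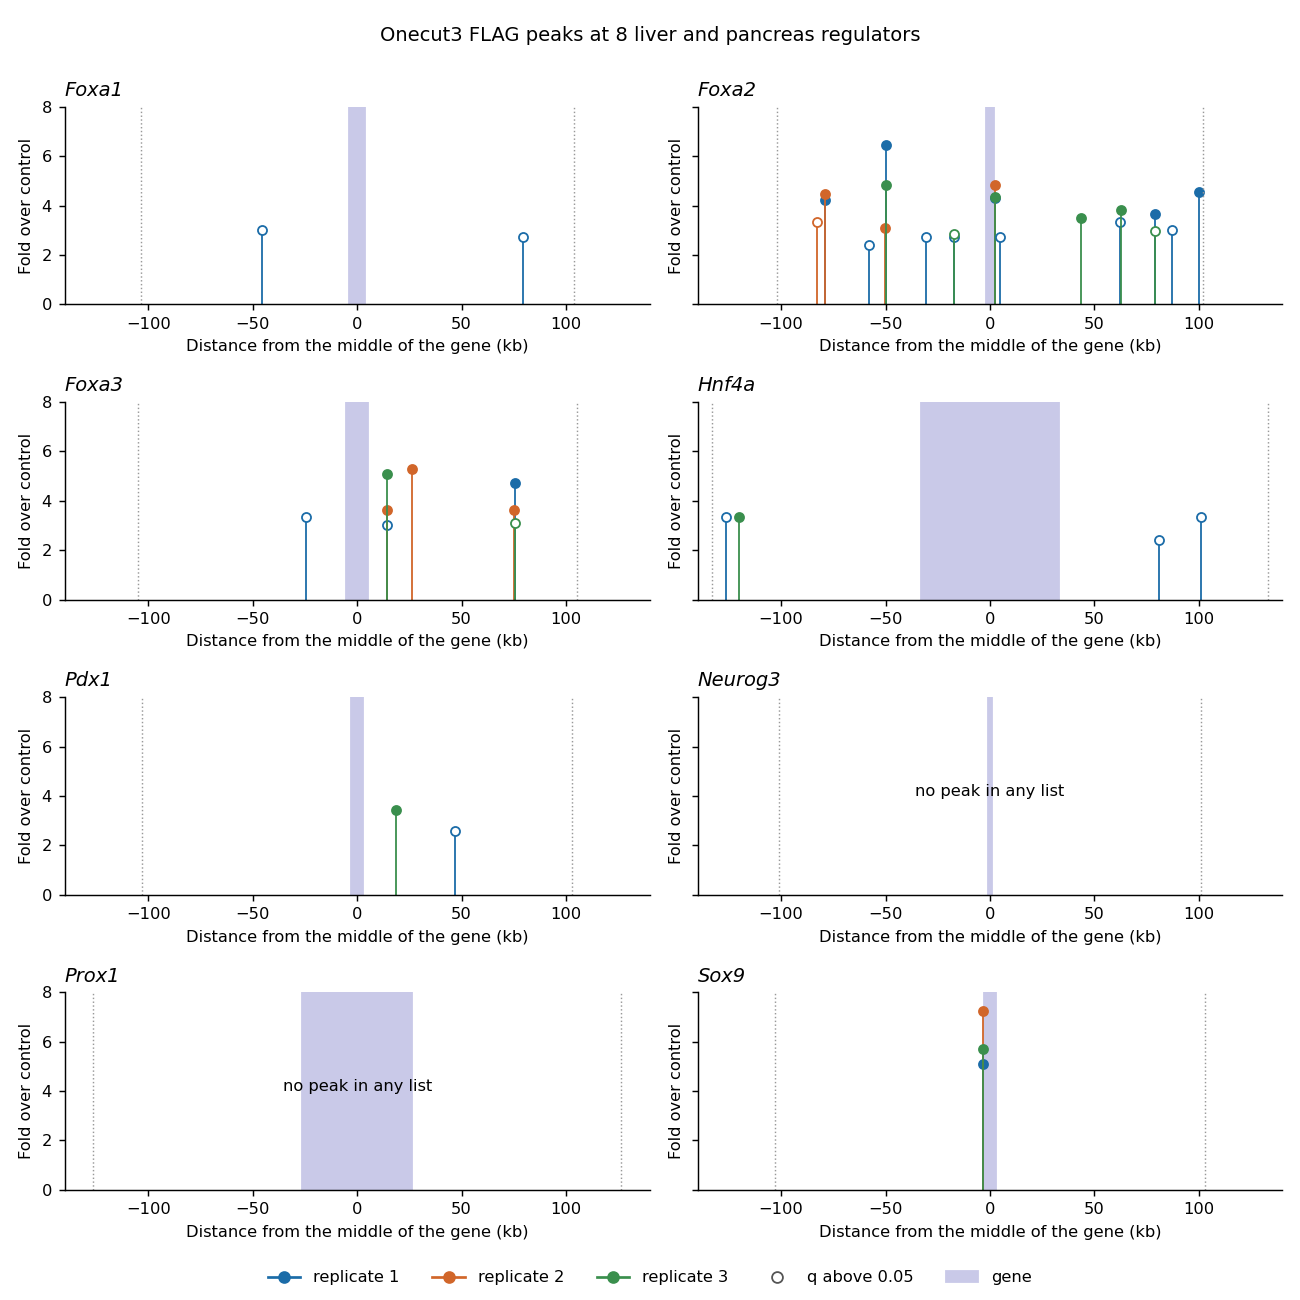
Peaks of the 3 FLAG replicates at each gene, by distance in kb from the middle of the gene (x axis, coordinates rising to the right) and fold over the expected background (y axis). Lines stand at the summits, filled circles have q of at most 0.05, open circles a higher q, the band is the gene and dotted lines are the limits of the window. Sox9 has 1 cluster of 3 filled circles at the gene, Foxa2 has peaks on both sides, and Neurog3 and Prox1 have none.

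Against all genes, the 8 regulators had recurrent regions at about the usual rate. A region in all 3 lists lay in or within 100 kb of 3 of the 8 (37.5%), beside 40.6% of 21887 protein-coding genes. At least 2 such regions were near 2 of the 8 (25%), beside 14.9% of genes. Inside the gene or within 1 kb there was one at Foxa2 and Sox9, 2 of 8 (25%), beside 10.4%. The 1 kb limit is not one of the planned windows of 50, 100 and 200 kb, and the Sox9 region lies 450 bp from the gene. A region in any list was near 6 of 8 (75.0%), beside 91.0%. With only 8 genes a single gene moves such a share by much, and nothing particular to these genes is read from the counts. The median number of regions of any list was 2 over the 8 and 5 over all genes.

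Windows differ in length with the gene, so densities were also compared per Mb of window. The median was 9.68 regions per Mb over the 8 genes, against 19.4 over all genes. Foxa2 had 63.7 per Mb, at percentile 98.4 of all genes and 99.0 of the 1782 genes of chromosome 2. Foxa3 had 19.0 per Mb, close to the median of all genes (percentile 48.4) but at percentile 86.0 within chromosome 7. Hnf4a had 15.0, Pdx1 9.72, Foxa1 9.64 and Sox9 4.87 per Mb, at percentiles 40.7, 25.7, 25 and 14.7 of all genes. The empty windows of Neurog3 and Prox1 tied with those of 1970 genes in all. Counting regions in all 3 lists only, Foxa2 had 9.80, Foxa3 9.51 and Sox9 4.87 per Mb, at percentiles 94.4, 92.8 and 81.4, and 59.4% of genes had none. The 13 regions of Foxa2 and the region of Sox9 had that gene as their nearest protein-coding gene, and the other 12 regions were nearer to another gene. By nearest gene, 3 of the 5 recurrent regions would be counted.

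**Figure D5:**
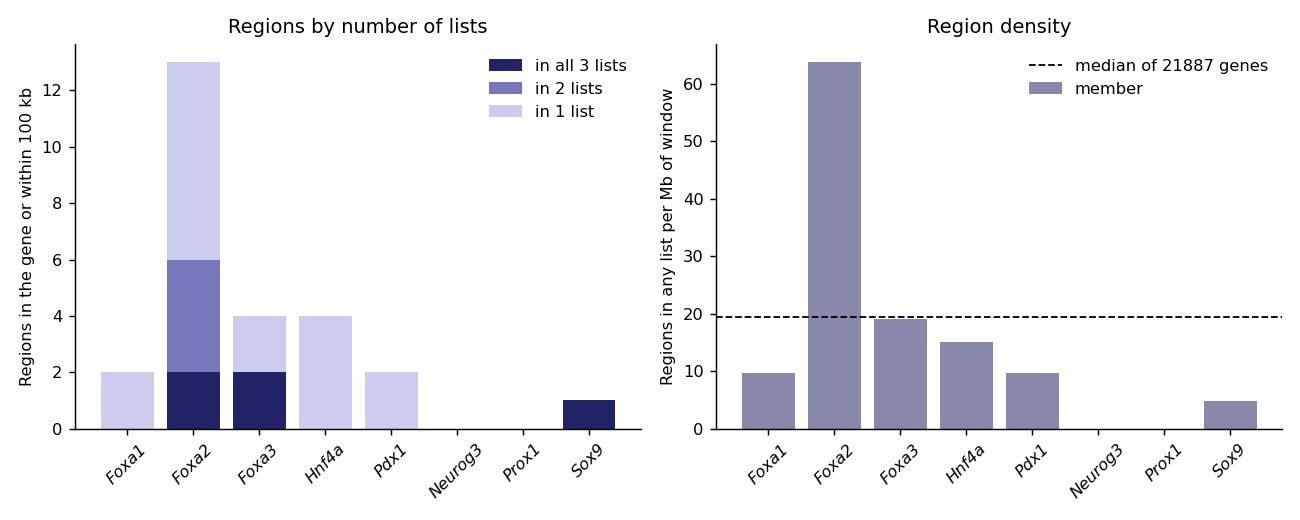
Left, number of regions in each gene or within 100 kb of it, split by the number of lists with a peak there. Right, regions of any list per Mb of window, with a dashed line at the median of all genes, 19.4 per Mb. Foxa2 has the tallest bar in both panels, with 13 regions and 63.7 per Mb.

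The 3 lists differed in size and in how many peaks they put near these genes. Replicate 1 had 21 of its 31600 peaks there, replicate 2 had 8 of 12856 and replicate 3 had 11 of 24822. The number of reads is not in the lists, so the depth is unknown, and 5 of the peaks in each replicate lay in the regions found in every list. Over all peaks, the share in such regions was 16.3%, 40.0% and 20.7% in replicates 1, 2 and 3. A q of at most 0.05 was reached by 7 of 21 peaks in replicate 1 (33.3%), 7 of 8 in replicate 2 (87.5%) and 8 of 11 in replicate 3 (72.7%), beside 33.6%, 71.0% and 47.7% of all peaks. By recurrence, 13 of the 15 peaks in the 5 recurrent regions had such a q, 4 of the 8 peaks in regions of 2 lists and 5 of the 17 in regions of 1 list. The same shares over all peaks by recurrence are not given here, so nothing particular to these genes is read from them. The median fold near these genes was 3.33, 4.04 and 3.50, against 3.03, 3.79 and 3.18 over all peaks of the same list. In replicates 1 and 3 the pileup behind the peaks ran from 7 to 29 and from 8 to 20 fragments, so many of them rest on few fragments. Without replicate 1 the 26 regions became 14, since 12 were in that list alone. Without replicate 2 the regions found in both remaining lists were 8, and Foxa2, Foxa3 and Sox9 had one when any of the replicates was left out, beside 47.3%, 56.6% and 49.98% of all genes without replicate 1, 2 and 3.

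With all 3 lists, other liver and pancreas genes gave shares near the background as well. Of 32 further transcription factors of these organs, 13 had a region in all 3 lists in or within 100 kb (40.6%), the same as the 40.6% of all genes. Glis3, a zinc finger factor of beta cells, had 6 such regions, but it is 421 kb long and lies on chromosome 19, where its 57.9 regions of any list per Mb were at percentile 74.8. Rbpjl, a subunit of the acinar PTF1 complex, had 4, and Pax4, a beta cell factor, had 2. Isl1 and Nkx2-2, both islet factors, had empty windows, as Neurog3 did. Of 28 genes for products of hepatocytes, bile ducts and islets, 11 had a region in all 3 lists (39.3%). Regions in both remaining lists were near 19 of these 28 without replicate 1, 19 without replicate 2 and 11 without replicate 3, beside 47.3%, 56.6% and 49.98% of all genes. Ins1, an insulin gene, Spp1, which encodes osteopontin, and Krt7, a bile duct keratin, had 2 each. The nearest to Ins1 lay 15.8 kb away with folds of 6.78, 6.45 and 4.76 in replicates 1, 2 and 3, and the nearest to Spp1 lay 6.34 kb away with 6.37, 4.91 and 4.57. Whether another gene lies nearer to these regions is not given here. Alb and Afp, which are neighbours, shared 1 region.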

How the data were processed

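ChIP-Seq was performed by the authors on ONECUT3-OE and control MEFs, and the peak lists of the 3 ONECUT3-OE FLAG replicates were used. The control FLAG, IgG and input libraries were not analysed here. The submitters' processing notes name deepTools 3.3.2, MACS2 2.1.0 and Bowtie2 2.2.6 besides GRCm38, and peak names point to calling per sample with the input as control. How reads were filtered is not given in the sources used here. For each peak the authors deposited a fold (the ratio of pileup to expected background at the summit, with 1 added to each), the p-value and the q-value as -log10, a score, and the summit offset. Peaks were listed up to a p of 0.01, whatever their q. As the fold moves with sequencing depth, it was ranked within its list only.

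Peaks overlapping by at least 1 bp were merged. Genes were 21887 protein-coding genes of RefSeq on GRCm38.p6, without those of the mitochondrion, and all 8 genes and all genes of both lists were found by symbol. A region counted for a gene when it reached inside it or within 100 kb of either end. Pileup and background were solved from fold and p within 0.001 in -log10 p, tried on every 20th peak, which worked for 100.0% in replicates 1 and 3 and 0.156% in replicate 2. The merging, counting and solving were tested on simulated data. The members and lists were chosen with earlier results of these data known, and no test was run over them. Named are all 8 genes, up to 4 genes of each further list with the most regions in all 3 lists, and the genes holding those regions near the 8. Some genes that this rule would name are not reported here. Genes in or beside regions of fewer lists, and those named for empty windows or a shared region, were named after their values were seen. Alternatives were limits of q and fold, overlap rules, windows of 50 and 200 kb, and leaving out each replicate. Scripts ran in Python 3.11.15 with matplotlib 3.10.9, scipy 1.17.1, pandas 2.3.3 and numpy 2.4.6. No source used here says whether replicates came from separate cultures, so their agreement may be technical.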

Additional observations from a re-analysis of the deposited data

How the results depend on the processing

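Of 58 alternative values, 37 stayed within 1.5 times the count or within the spread, and 21 moved. With a fold of at least 5, the genes with a recurrent region numbered 1, recurrent regions 1, regions of any list 4, median density 0 per Mb, further transcription factors 3 of 32 and product genes 0 of 28, beside 7.02% of all genes. With a q of at most 0.05, recurrent regions numbered 3 (at Foxa2 and Sox9), so 2 of the 8 genes had one, beside 29.6% of all genes. Regions of any list then numbered 13 and the median density was 4.31 per Mb. Within 200 kb, recurrent regions numbered 8, regions of any list 57, the median density was 17.1 per Mb and 20 further transcription factors had a recurrent region, beside 57.1% of all genes. Within 50 kb, regions of any list numbered 14. Of the replicate 2 peaks, 5 of 5 (100%) then had a q of at most 0.05, beside 7 of 8 (87.5%) within 100 kb. This share was counted as moved, although it changed by less than 1.5 times. Counting only regions nearest to the gene, an alternative chosen after the data were seen, left 3 recurrent regions. With 1 replicate left out, 3 genes had a recurrent region each time (3 to 3), recurrent regions numbered 5 to 8, regions of any list 14 to 24, median density 4.31 to 9.68 per Mb, further transcription factors 16 to 18 of 32 and product genes 11 to 19 of 28, beside 47.3%, 56.6% and 49.98% of all genes without replicate 1, 2 and 3. The 19 came without replicate 1 and also without replicate 2, and the 11 without replicate 3. In each case only the remaining lists had to share a region, and why the counts differed was not tested. The median density of all genes is given here only for 100 kb and all peaks of the 3 lists. The medians under other settings have no such value beside them. No paired analysis was possible because the lists used come from 1 group. Peaks with few fragments limit all counts, and the depth is unknown.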

Other observations

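Among the further transcription factors, Ppara, the nuclear receptor of fatty acid oxidation in hepatocytes, had 1 region in all 3 lists, with high folds. It was chosen after its values were seen. On chromosome 15 from 85832143 to 85832569, it lay 25.3 kb from the gene with folds of 10.2, 7.11 and 10.7 in replicates 1, 2 and 3, each above the highest fold near the 8 regulators in that replicate except in replicate 2, where the Sox9 region had 7.24. Mnx1, a homeobox gene of the pancreas and of motor neurons, had 12 regions of any list and 1 in all 3 lists, 90.4 kb away, with folds of 5.37, 7.52 and 7.74. Whether another gene lies nearer to the Ppara and Mnx1 regions is not given here. Nr1i2, which encodes the xenobiotic receptor PXR, and Afp, which encodes alpha-fetoprotein, had a region of all 3 lists inside the gene or across its end. Glis3 had one there as well, and Mafa had one 0.994 kb away. Inside the gene or within 1 kb, 10.4% of all protein-coding genes had such a region. Mnx1, Nr1i2, Afp and Mafa were also named after their values were seen. The folds were 4.24, 5.29 and 5.41 at Nr1i2 and 4.54, 5.01 and 4.84 at Afp.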
